A study of Homo sapiens with 6 samples.

Results

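The 8 genes described here encode the subunits of TRiC (also called CCT), the chaperonin of the eukaryotic cytosol. They were taken by gene name (TCP1, CCT2, CCT3, CCT4, CCT5, CCT6A, CCT7 and CCT8) from a deposited table of 20532 genes, and all 8 were present and passed the filter on low counts. The libraries held mRNA-enriched RNA of cells labelled ACHN, an established human renal carcinoma line, which the labels assign to clear cell renal cell carcinoma. The knockdown cells carried a lentiviral short hairpin RNA against DNAJC2 (shDNAJC2, 3 libraries). The control cells carried a lentiviral negative control hairpin (shCtrl, 3 libraries), so both groups shared the transduction and differed in the hairpin. Each hairpin line was described as stable, and nothing stated whether the 3 libraries of a group were transduced separately. The p-values therefore reflect library-to-library spread, which may be technical.

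TRiC is a pair of stacked rings, each built from 1 copy of every subunit, that closes over a newly made protein and lets it fold inside when ATP is hydrolysed. Its best known clients are actin and tubulin, which cannot fold without it, and proteins with a beta-propeller of WD40 repeats. Prefoldin hands chains over to it, phosducin-like proteins tune its cycle, and the tubulin cofactors take over folded tubulin. DNAJC2 acts earlier on the same route: with HSPA14 it forms the ribosome-associated complex, which meets the chain at the ribosome exit. In yeast, the subunits corresponding to CCT2, CCT4 and CCT5 bind ATP tightly and sit on one side of the ring, and those corresponding to CCT3, CCT6A and CCT8 bind it weakly and sit on the other.

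Total counts ranged from 17491462 to 24308609 in the shDNAJC2 libraries and from 22687843 to 25760291 in the shCtrl libraries. DNAJC2 itself was at 51.2, 50.4 and 38.5 CPM (counts scaled to library size, with TMM normalization) in shDNAJC2 1, 2 and 3. The control libraries shCtrl 1, 2 and 3 held 76.7, 69.8 and 86.5 CPM. Every knockdown library thus lay below every control for this gene, as was so for 8.43% of all genes. DNAJC2 alone does not settle whether each library is what its label says. The log2 fold change was −0.74 (edgeR adjusted p = 0.43), and without shCtrl 3 DNAJC2 fell by 0.65 (edgeR adjusted p = 0.0080). The control library shCtrl 3 stood apart. Between it and shCtrl 1, 2080 genes differed more than 2-fold, and between it and shDNAJC2 2, 78 did. A list of 10 targets of the stress factor ATF4 shows this axis. Their mean log2 level, centred on all 6 libraries, was 1.32, 1.35 and 0.59 in shDNAJC2 1, 2 and 3, and −2.32, −2.30 and 1.35 in shCtrl 1, 2 and 3. Results are therefore given with and without shCtrl 3, a library singled out after its values were seen. In the knockdown group shDNAJC2 3 also lay apart, though less far. It differed more than 2-fold from shDNAJC2 1 in 547 genes and from shDNAJC2 2 in 460, while shDNAJC2 1 and 2 differed in 114. Fits without shDNAJC2 3 are given only in the closing section. In CPM without TMM scaling, of 11 renal epithelial genes only KRT8, KRT18, PAX8 and CDH2 reached 1 CPM in every library. CDH1 and CDH16 had 0 counts in all 6, which allows up to 0.172 CPM in the shallowest library, and PAX2 and LHX1 did not exceed 0.155 CPM. All 8 fibroblast genes reached 1 CPM in every library, with a summed level of 1250 to 2000 CPM in shDNAJC2 and 1338 to 4862 CPM in shCtrl. Of 9 blood and 6 endothelial genes, 2 and 1 reached 1 CPM in every library. CD3E, CDH5 and EMCN had 0 counts in all 6. The renal epithelial list was thus mixed, with some genes at or near 0 and KRT8, KRT18, PAX8 and CDH2 present in every library. Together with the fibroblast genes present in every library, these markers do not settle the identity of the cells. The cells are called here by their label without a check of their identity.

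The mRNAs of the 8 subunits differed little between shDNAJC2 and shCtrl. The groups overlapped for every subunit, and edgeR's quasi-likelihood test called 0 of the 8 higher and 0 lower. The count of subunits at an unadjusted p under 0.05 was also 0, and DESeq2 and limma-voom each called 0. Over all 13988 genes tested edgeR likewise called 0 (0%), 11.3% had an unadjusted p under 0.05, and 15.8% had groups that did not overlap (7.33% higher and 8.43% lower in shDNAJC2). DESeq2 called 18 of the 10015 genes to which it gave an adjusted p (0.18%). Without shCtrl 3, edgeR called 34.8% of 14201 genes, 17.8% higher and 17% lower in shDNAJC2, and still 0 of the 8 subunits. The 95% intervals of the 8 differences lay between 0.781-fold and 1.47-fold of control, so a change of 2-fold in any subunit's mRNA lay outside them. The standard errors of the 8 log2 fold changes were 0.11 to 0.17. The median log2 fold change of the 8 was 0.10. It was −0.02 for all genes tested and 0.03 for the 2305 genes with a mean of at least 100 CPM. Of the 8 subunits, 7 were positive, against 47.7% of all genes. Of these, CCT4 and TCP1 turned negative with the GC trend removed. A subunit mRNA level in a bulk library cannot tell fewer cells from less RNA per cell.

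**Figure D1:**
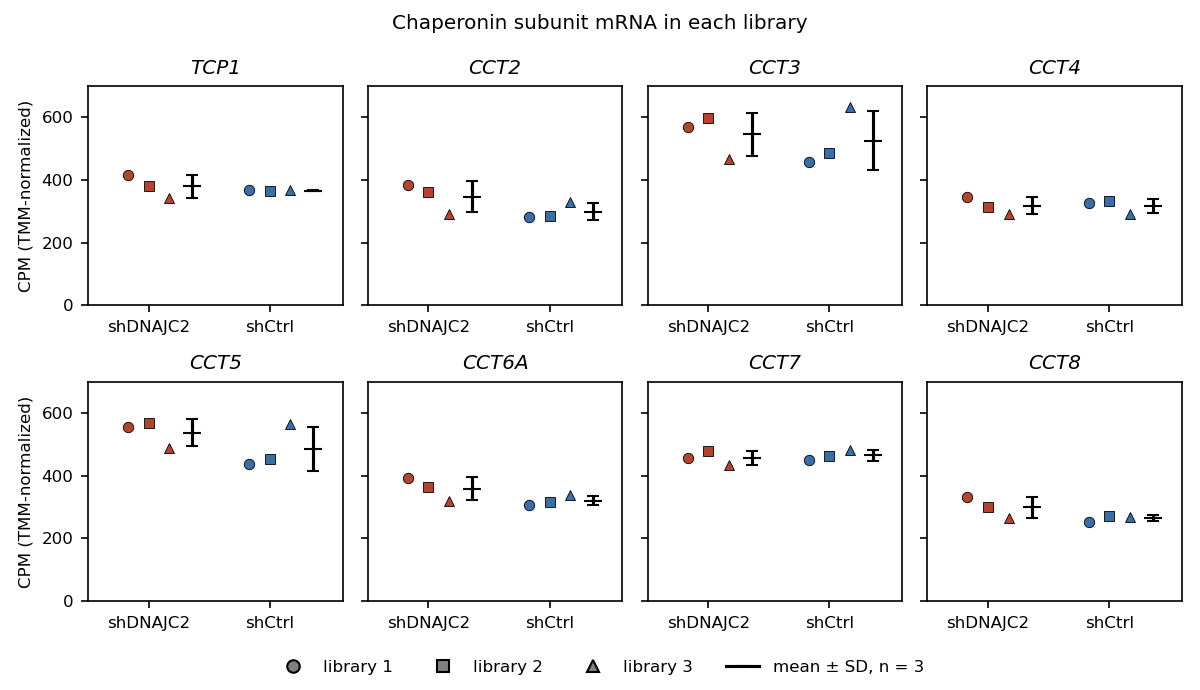
Level of each chaperonin subunit mRNA in TMM-normalized CPM (vertical axis, from 0) in the 3 shDNAJC2 libraries (red) and the 3 shCtrl libraries (blue), with the group mean ± SD beside the points. The groups overlap in all 8 panels, from CCT8 in shCtrl 1 at 253 CPM to CCT3 in shCtrl 3 at 632 CPM.

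CCT2 had the largest fitted difference over all 6 libraries, although without shCtrl 2 CCT8 (0.209) exceeded it (0.193). This subunit, in which inherited variants cause a form of retinal blindness, is encoded on chromosome 12 (ENSG00000166226, 69585334 to 69601570 on GRCh38). Its mRNA was at 385, 361 and 290.5 CPM in shDNAJC2 1, 2 and 3, and at 280, 286 and 329 CPM in shCtrl 1, 2 and 3. shDNAJC2 1 and 2 lay above every control, while shDNAJC2 3 lay within the range of the controls. The means were 346 ± 49.4 CPM in shDNAJC2 and 298 ± 26.6 CPM in shCtrl (SD, n = 3 each). The difference came to 0.21 on the log2 scale (SE 0.15, 95% interval −0.13 to 0.56, edgeR adjusted p = 0.49). Without shCtrl 3 it was 0.292 (edgeR adjusted p = 0.118), and over all 6 libraries with the GC trend removed it was 0.159.

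CCT5 (ENSG00000150753, chromosome 5, 10249921 to 10266412), the subunit mutated in a hereditary sensory neuropathy, was at 555, 570 and 489 CPM in shDNAJC2 and at 436, 453.5 and 567 CPM in shCtrl. shCtrl 3 lay among the knockdown libraries and the other controls lay below all of them. Its log2 fold change was 0.15 (95% interval −0.20 to 0.50, edgeR adjusted p = 0.62). Without shCtrl 3 it was 0.28, and its adjusted p of 0.0874 in edgeR was the smallest that any subunit reached under any setting tried. With the GC trend removed the log2 fold change of CCT5 over all 6 libraries was 0.0862.

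CCT4 (ENSG00000115484, chromosome 2, 61868089 to 61888804) showed the reverse order in the controls. CCT4 mRNA stood at 346, 315 and 292.5 CPM in shDNAJC2 and at 326, 334 and 290 CPM in shCtrl, so that shCtrl 3 was the lowest of all 6 libraries. The log2 difference was 0.01 (95% interval −0.28 to 0.29, edgeR adjusted p = 0.98). CCT7 (ENSG00000135624, chromosome 2, 73233420 to 73253021) varied least, with 456, 478 and 434 CPM in shDNAJC2 and 450, 463 and 483 CPM in shCtrl. Its highest library was 1.11 times its lowest, and its log2 fold change was −0.03 (95% interval −0.29 to 0.23, edgeR adjusted p = 0.90).

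Of the subunits that bind ATP weakly in yeast, CCT8 and CCT6A had small positive differences. CCT8 (ENSG00000156261, chromosome 21, 29055805 to 29073797) was at 331, 301 and 265 CPM in shDNAJC2 and at 253, 272 and 268 CPM in shCtrl. The log2 difference of CCT8 was 0.18 (95% interval −0.11 to 0.47, edgeR adjusted p = 0.49). CCT6A (ENSG00000146731, chromosome 7, 56051630 to 56063989) was at 392, 363 and 320 CPM in shDNAJC2 and at 308, 318 and 337 CPM in shCtrl, a log2 fold change of 0.16 (95% interval −0.13 to 0.45, edgeR adjusted p = 0.53). With the GC trend removed the values were 0.103 for CCT8 and 0.0948 for CCT6A, and without shCtrl 3 they were 0.193 and 0.201. In both, shDNAJC2 1 and 2 lay above every control and shDNAJC2 3 lay within the range of the controls.

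TCP1 (ENSG00000120438, chromosome 6, 159778498 to 159789749) gave its name to the family, as t-complex protein 1. Its mRNA was at 415, 379 and 344 CPM in shDNAJC2, around controls that were almost equal at 367, 363 and 367 CPM. Its log2 fold change was 0.05 (95% interval −0.23 to 0.33, edgeR adjusted p = 0.83), and 0.058 without shCtrl 3. CCT3 (ENSG00000163468, chromosome 1, 156308968 to 156367873) was at 570.5, 598 and 468 CPM in shDNAJC2 and at 459, 486 and 632 CPM in shCtrl, the widest spread in the controls of any subunit. The fitted log2 difference was 0.05 with the widest interval of the 8, −0.36 to 0.46 (edgeR adjusted p = 0.88), and 0.21 without shCtrl 3. shCtrl 3 held the highest CCT3 level of the 6 libraries and the lowest CCT4 level.

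**Figure D2:**
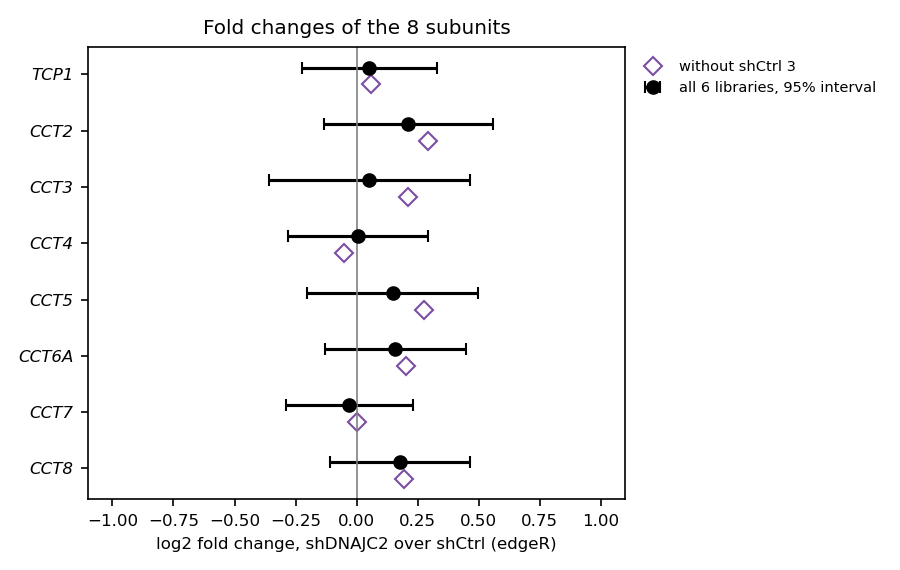
Log2 fold change of each subunit, shDNAJC2 over shCtrl, with its 95% interval over all 6 libraries (filled circles), and the value without shCtrl 3 (open diamonds). Every interval crosses 0, and the largest estimate over all 6 libraries is 0.21, for CCT2.

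The spread of the subunits over libraries can be set beside that of other abundant genes. From its lowest to its highest library each subunit spanned 0.16 (CCT7) to 0.46 (CCT2 and CCT3) on the log2 scale. The median span of the 2305 genes with a mean of at least 100 CPM was 0.50, with a lower quartile of 0.34. All 8 subunits were under that median and 3 were under that quartile. Each subunit had 5038 to 15114 counts in each library, for which counting error alone is 1.41% to 0.813%, well below these spans. As a share of all counts the 8 genes made up 0.332, 0.322 and 0.30% in shDNAJC2 1, 2 and 3, against 0.310, 0.313 and 0.304% in shCtrl 1, 2 and 3. After TMM scaling their summed level was 3451, 3366 and 2902 CPM in shDNAJC2, against 2879, 2975 and 3274 CPM in shCtrl. The place of shCtrl 3 thus turned with the scaling: it was the lowest control by share of counts and the highest after TMM.

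The balance among subunits within a library needs no scaling between libraries, since both genes of a ratio come from the same library. Among the 28 pairs, the log2 ratio of counts varied over the 6 libraries by a median of 0.33. The steadiest pair was CCT6A with CCT8, whose ratio of counts was 1.18, 1.2 and 1.21 in shDNAJC2 and 1.22, 1.17 and 1.26 in shCtrl. The pair that varied most was CCT3 with CCT4, at 1.65, 1.9 and 1.6 in shDNAJC2 and 1.41, 1.45 and 2.18 in shCtrl. That ratio was higher in every knockdown library than in shCtrl 1 and 2 and highest in shCtrl 3. Relative to the mean of the other 7 subunits, CCT4 was at −0.03, −0.12 and −0.01 on the centred log2 scale in shDNAJC2, and at 0.18, 0.17 and −0.19 in shCtrl. CCT3 was at −0.06, 0.08 and −0.09 in shDNAJC2, and at −0.11, −0.07 and 0.24 in shCtrl. These ratios were picked from all pairs by their spread, and they are described without a test. Library size cancels in such a ratio, but a GC trend that differs between libraries does not. The longest transcripts of CCT3 and CCT4 have 51.16% and 44.72% GC, and those of CCT6A and CCT8 have 44.13% and 43.09%. With the GC trend removed the log2 fold changes of CCT3 and CCT4 were 0.0806 and −0.0519. The part that GC had in these ratios was not tested.

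**Figure D3:**
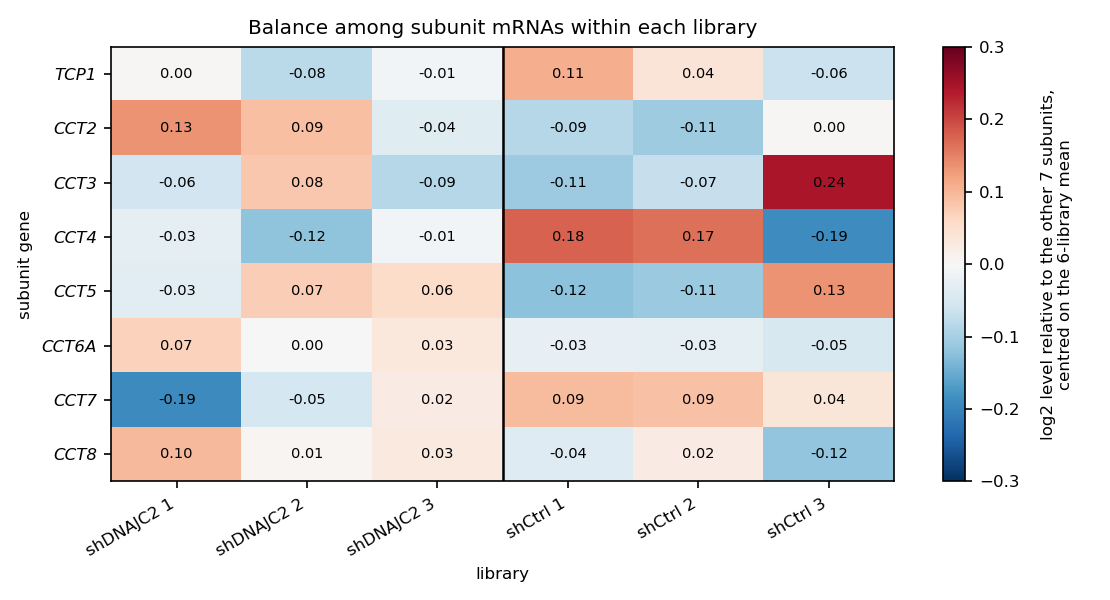
Log2 level of each subunit relative to the mean of the other 7 in the same library, centred on its mean over the 6 libraries (red above, blue below), with shDNAJC2 libraries left of the line and shCtrl libraries right of it. CCT3 reaches 0.24 and CCT4 −0.19 in shCtrl 3, while CCT6A stays between −0.05 and 0.07.

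Per length of transcript the subunit mRNAs were not equal, although the protein complex holds equal numbers of each. In TPM (length-normalized abundance within a library, from the deposited counts and the longest annotated transcript), CCT3 averaged 660 ± 49.2 and CCT7 604 ± 29.2 over the 6 libraries (SD). TCP1 followed at 397 ± 26.5, CCT2 at 390 ± 35.3, CCT8 at 374 ± 30.6 and CCT5 at 369 ± 20.1 TPM. CCT4 and CCT6A were lowest, at 336 ± 36.2 and 332 ± 21.1 TPM. The step from CCT7 to TCP1, a factor of 1.52, held in all 6 libraries without overlap of their ranges. All other neighbours in that order overlapped, and CCT3 exceeded CCT7 in 4 of the 6 libraries, the exceptions being shCtrl 1 and shCtrl 2. With the principal transcript in place of the longest, CCT2 and TCP1 changed places, at 371.5 and 352.5 TPM. The longest transcript need not be the one expressed, which bears most on CCT5, whose longest transcript has 3675 bases against 2005 to 2719 for the other 7. CCT3 and CCT7 also had the most GC in the longest transcript, at 51.16% and 51.3%, against 43.09% (CCT8) to 45.91% (CCT2) for the rest. The part that GC had in the step from CCT7 to TCP1 was not tested.

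**Figure D4:**
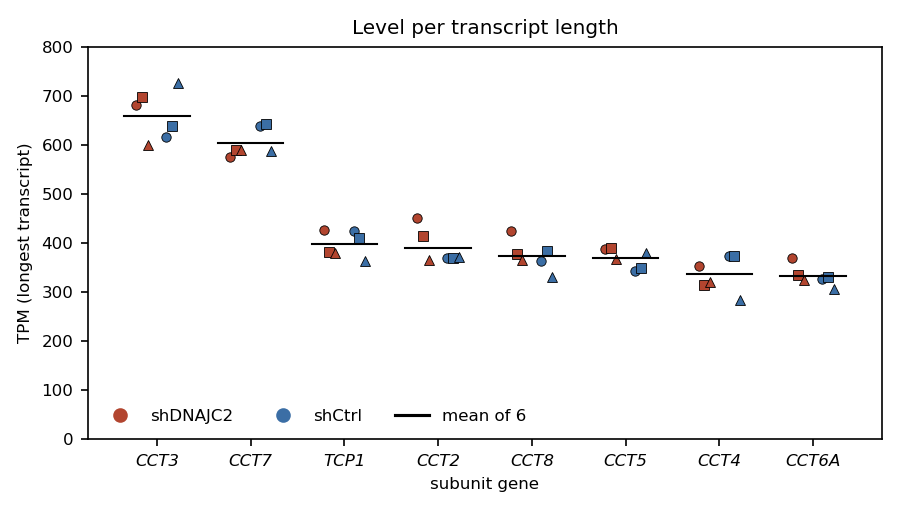
TPM of each subunit (vertical axis, from 0) in each shDNAJC2 library (red) and each shCtrl library (blue), ordered by the mean of the 6 libraries (line), with marker shapes for libraries 1, 2 and 3. CCT3 and CCT7 lie at 576 TPM or more in every library and the other 6 subunits at 452 TPM or less.

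Some reads may be assigned to a subunit with uncertainty. The largest overlap is that of CCT5, which shares 1757 exon bases with AC012640.4, an antisense gene on the opposite strand. CCT4 shares 275 with the antisense gene AC107081.2 and 81 with COMMD1, both on the opposite strand. Neither antisense gene was among the genes counted. TCP1 shares 397 exon bases with ACAT2, which encodes a cytosolic thiolase and lies on the opposite strand. ACAT2 was at 63.5, 59.2 and 65.4 CPM in shDNAJC2 and at 84.3, 87.4 and 50.3 CPM in shCtrl, far below TCP1. The strand setting of the counting was not given in the sources used here. GENCODE names 1 to 4 pseudogenes after each of TCP1, CCT4, CCT5, CCT6A, CCT7 and CCT8, and the table had no row for any of them.

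Start regions of 7 of the 8 genes were matched in RefSeq promoter sequences (GRCh38.p14), and 250 bases before each listed start were searched on both strands. The listed starts lie inside the gene spans given above, so the windows reach into the genes. For CCT3, CCT5 (10250287 to 10250536) and CCT7 the whole window lay inside that span, and no bases before it were searched. The counts below hold for these windows only. The heat shock element, searched as GAANNTTC, is shown because heat shock factor is a known activator of chaperone genes. It was found for TCP1 and CCT2, and in 5.78% of the 35116 windows of all genes. The match of TCP1 began 231 bases before its listed start, within chr6:159789815-159789844 on the minus strand. That stretch lies before the annotated TCP1 gene, whose 5' end is at 159789749. The match of CCT2 began 89 bases before its second listed start, within chr12:69585789-69585818 on the plus strand. That stretch lies inside the annotated CCT2 gene, which begins at 69585334. The window before the first listed start of CCT2 held no heat shock element. The 30 bases around each follow, with the match in capitals.
TCP1: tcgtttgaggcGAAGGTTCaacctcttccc
CCT2: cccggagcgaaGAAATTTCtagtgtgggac
The C/EBP-ATF element TTGCATCA, through which ATF4 acts, was found for 0 of the 7 and in 0.772% of all windows. The E-box CACGTG was found for 0 of the 7 and in 6.34% of all windows. The core of the antioxidant response element, TGACNNNGC, was found for CCT4, 167 bases before its first listed start, and in 10.9% of all windows. Of 10 heat shock factor target genes, edgeR called 0 over all 6 libraries, and without shCtrl 3 it called 0 higher and 1 lower, beside 17.8% and 17% of all genes. That gene was HSPB1, a small heat shock protein gene chosen after its values were seen, at 98.3, 111 and 112 CPM in shDNAJC2 and 277, 287 and 138 CPM in shCtrl. The median log2 fold change of these 10 heat shock factor targets was −0.01 over all 6 libraries and 0.203 without shCtrl 3. Without that library the median of the 8 subunits was 0.197 and that of all genes tested was −0.00765. Of the 10 ATF4 targets, 0 were called over all 6 libraries and 10 rose without shCtrl 3, where 17.8% of all genes did.

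The genes with profiles most like the mean of the 8 subunits over the 6 libraries came from several processes. Likeness was the root mean square difference of centred log2 CPM, among 9819 other genes with a mean of at least 10 CPM. The nearest was PSMC1, a proteasome ATPase subunit, at 0.0197, with 206, 201 and 171 CPM in shDNAJC2 and 172, 172 and 187 CPM in shCtrl. Also near were the iron-sulfur gene GLRX5 (0.0223), the mitotic checkpoint gene BUB3 (0.0224) and the adaptor gene CRK (0.0229). Such a profile was common: 1167 genes lay within 0.1 of the mean, whereas single subunits lay 0.0397 (CCT6A) to 0.135 (CCT4) from the mean of the other 7.

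Genes whose products feed the chaperonin or act beside it also had no calls over all 6 libraries. edgeR called 0 of the 6 prefoldin, 7 prefoldin-like and R2TP, 3 phosducin-like, 6 tubulin cofactor, 4 chaperonin-like and 2 mitochondrial chaperonin genes tested. At an unadjusted p under 0.05 there were 1 prefoldin, 2 tubulin cofactor and 1 chaperonin-like gene higher (4% of all genes were), and 1 R2TP gene lower (7.33% of all genes were). With the GC trend removed none of these genes stayed under 0.05. Their unadjusted edgeR p-values were then 0.182 (PFDN4), 0.111 (TBCEL), 0.16 (TBCE), 0.272 (MKKS) and 0.407 (RUVBL2). The median log2 fold changes were 0.24 for chaperonin-like and 0.24 for mitochondrial chaperonin genes, 0.12 for prefoldin, 0.03 for prefoldin-like and R2TP genes, 0.13 for phosducin-like genes and 0.06 for tubulin cofactors, against −0.02 for all genes.

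Among the prefoldin genes PFDN4 had the smallest p. Its level was 26.7, 22.5 and 19.4 CPM in shDNAJC2 and 15.3, 17.4 and 18.8 CPM in shCtrl. The groups did not overlap, and the log2 fold change was 0.41 (95% interval 0.03 to 0.79, edgeR adjusted p = 0.43), or 0.236 with the GC trend removed. PFDN4 was the only 1 of the 6 prefoldin genes whose groups did not overlap. Of all genes, 7.33% were higher without overlap. PFDN2 followed shCtrl 3 instead, at 115, 120 and 86.2 CPM in shDNAJC2 and 65.3, 60.7 and 117 CPM in shCtrl. Without shCtrl 3 both rose, PFDN4 by 0.49 and PFDN2 by 0.77, and 2 of the 6 prefoldin genes were thus called higher (17.8% of all genes were). VBP1, a further prefoldin subunit gene, had a log2 fold change of 0.16, or 0.0284 with the GC trend removed.

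In the prefoldin-like and R2TP list, RUVBL2, an ATPase of the R2TP assembly complex, was at 130, 149.5 and 120 CPM in shDNAJC2 and at 151, 165 and 179 CPM in shCtrl. The groups did not overlap, the log2 fold change was −0.31 (95% interval −0.61 to −0.02), and edgeR's adjusted p was 0.43. RUVBL2 was the only 1 of the 7 genes of this list whose groups did not overlap. Of all genes, 8.43% were lower without overlap. The RUVBL2 fold change was −0.116 with the GC trend removed, and −0.246 and not called without shCtrl 3. Without shCtrl 3, 3 of the 7 genes of this list rose, beside 17.8% of all genes. They were URI1 (0.84), PDRG1 (0.82) and RPAP3 (0.43), of which PDRG1 is outside the naming rule and was chosen after its values were seen. Over all 6 libraries URI1 had a log2 fold change of 0.47 and RPAP3 of 0.30, or 0.125 for RPAP3 with the GC trend removed.

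Of the 6 tubulin cofactors, TBCEL and TBCE were higher in shDNAJC2 without overlap and TBCB was lower without overlap, beside 7.33% and 8.43% of all genes. TBCEL, a relative of the cofactor E that recycles tubulin, was at 28.2, 25.7 and 23.4 CPM in shDNAJC2 and 19.7, 17.5 and 21.9 CPM in shCtrl. Its log2 fold change was 0.39 (95% interval 0.06 to 0.71, edgeR adjusted p = 0.43), or 0.259 with the GC trend removed. TBCE, cofactor E itself, was at 50.3, 47.6 and 44.8 CPM in shDNAJC2 and 38.3, 38.9 and 42.2 CPM in shCtrl, a log2 fold change of 0.26, or 0.161 with the GC trend removed. TBCB, the cofactor that acts on alpha-tubulin, was named after its values were seen, at 93.0, 103 and 91.75 CPM in shDNAJC2 and 107, 104 and 110 CPM in shCtrl, a log2 fold change of −0.16. Without shCtrl 3 TBCEL and TBCE rose, by 0.47 and 0.30, and TBCD had a log2 fold change of −0.335 that was not called. None of the 3 phosducin-like genes tested was called in either fit: the log2 fold changes over all 6 libraries were 0.20 for TXNDC9, 0.13 for PDCL3 and −0.06 for PDCL. That of TXNDC9 was 0.0812 with the GC trend removed.

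Relatives of the subunits ranged from undetected to abundant. CCT8L2, a copy of CCT8 named after its values were seen, had 0 counts in all 6 libraries. CCT6B, the testis-enriched copy of CCT6A, was at 2.04, 1.08 and 1.19 CPM in shDNAJC2 and 1.11, 1.22 and 1.21 CPM in shCtrl. The CCT6B log2 fold change of 0.28 had a 95% interval from −0.46 to 1.02. MKKS, a chaperonin-like gene of Bardet-Biedl syndrome, had a log2 fold change of 0.33 over all 6 libraries and rose by 0.43 without shCtrl 3, and BBS12 had one of 0.21. With the GC trend removed those of CCT6B, MKKS and BBS12 over all 6 libraries were 0.0906, 0.183 and 0.114. The mitochondrial chaperonin gene HSPD1 was at 764, 666 and 533 CPM in shDNAJC2 and at 465, 457 and 628 CPM in shCtrl, and rose by 0.51 without shCtrl 3. Its co-chaperonin HSPE1 had log2 fold changes of 0.14 with and 0.08 without that library.

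The actin list held ACTB, ACTG1 and ACTA2 together with 4 genes for actin-related proteins (ACTR1A, ACTR2, ACTR3 and ACTL6A), and the propeller list also held clients that have no WD40 repeats, such as PLK1, STAT3 and VHL. Over all 6 libraries edgeR called 0 of the 7 actin and actin-related, 13 tubulin and 21 propeller and other client genes, while 4, 7 and 5 of them were lower at an unadjusted p under 0.05 and 0 were higher. Over all genes the share lower at that level was 7.33%. The median log2 fold changes were −0.30 for the actin and actin-related list and −0.49 for the tubulin list, and −0.02 for the propeller list. Without shCtrl 3, ACTB, ACTG1, ACTA2 and ACTR1A fell and 0 of the actin list rose, 8 tubulin genes fell and 2 rose, and 5 genes of the propeller and other client list fell and 3 rose, beside 17% of all genes that fell and 17.8% that rose.

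Both cytoplasmic actin genes, picked by their small p, separated the groups. In the actin and actin-related list 4 of the 7 genes were lower without overlap and 0 were higher, beside 8.43% and 7.33% of all genes. ACTB was at 2780, 3003 and 3183 CPM in shDNAJC2, against 5143, 5549 and 3363 CPM in shCtrl. ACTG1 was at 2103, 2279 and 2158 CPM in shDNAJC2, against 3631, 3958 and 2605 CPM in shCtrl. In both, shCtrl 3 was the lowest control and close to the knockdown libraries. The log2 fold changes were −0.65 for ACTB and −0.64 for ACTG1 (95% intervals −1.17 to −0.13 and −1.09 to −0.19, edgeR adjusted p = 0.43 for each), and without shCtrl 3 both fell, with log2 fold changes of −0.835 and −0.796. ACTA2, smooth muscle actin, was at 4.12, 4.67 and 4.85 CPM in shDNAJC2 and at 13.1, 14.7 and 4.98 CPM in shCtrl. The coding sequences of the actin genes are alike, so some reads may have been divided between them.

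The 3 tubulin genes of smallest p were also lower in shDNAJC2 1 and 2 than in every control. TUBB2A, a beta-tubulin, was at 22.5, 26.3 and 26.4 CPM in shDNAJC2 and 52.4, 54.4 and 31.05 CPM in shCtrl. Its groups did not overlap, and the log2 fold change was −0.87 (95% interval −1.41 to −0.34, edgeR adjusted p = 0.43). Of the 13 tubulin genes, 4 were lower without overlap and 0 were higher, beside 8.43% and 7.33% of all genes. TUBB6 was at 195, 211 and 236 CPM in shDNAJC2 and 349, 369 and 241 CPM in shCtrl. For TUBB3, at 45.2, 49.95 and 68.9 CPM in shDNAJC2 and 206, 212 and 55.7 CPM in shCtrl, shCtrl 3 lay among the knockdown libraries. With the GC trend removed the log2 fold change of TUBB6 was −0.386 in place of −0.58. Without shCtrl 3 the 3 genes fell by 1.09, 0.74 and 1.93. Tubulin genes also share long stretches of sequence. The epsilon-tubulin gene TUBE1, chosen after its values were seen, had a log2 fold change of 1.03 over all 6 libraries with overlapping groups, and rose by 2.14 without shCtrl 3.

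Among the propeller and other clients, FZR1, CDC20 and PLK1 had the smallest p. FZR1 and CDC20, the activators of the anaphase-promoting complex, are WD40 proteins that TRiC folds. FZR1 was at 51.9, 63.65 and 69.8 CPM in shDNAJC2 and 97.6, 101 and 78.8 CPM in shCtrl, and CDC20 was at 137, 150 and 150 CPM in shDNAJC2 and 262, 294 and 169 CPM in shCtrl. Their log2 fold changes were −0.58 and −0.73, and that of the mitotic kinase gene PLK1 was −0.59 (edgeR adjusted p = 0.43 for each). The groups did not overlap for any of the 3, which were picked by their small p. In this list 6 of the 21 genes were lower without overlap and 1 was higher, beside 8.43% and 7.33% of all genes. With the GC trend removed the log2 fold change of FZR1 was −0.344. VHL, the tumour suppressor of clear cell renal carcinoma and a TRiC client, was named after its values were seen. Its level was 75.4, 68.2 and 83.8 CPM in shDNAJC2, against 65.4, 65.0 and 65.0 CPM in shCtrl, a log2 fold change of 0.22 (95% interval −0.03 to 0.47, edgeR adjusted p = 0.43).

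The mean levels of the fibroblast and tubulin lists were both highest in shCtrl 1 and 2, although single genes of each, such as THY1 and TUBA4A, were highest elsewhere. The mean log2 level of the fibroblast list, centred on all 6 libraries, was −0.40, −0.45 and −0.08 in shDNAJC2 1, 2 and 3 and 0.65, 0.72 and −0.45 in shCtrl 1, 2 and 3. The tubulin list was at −0.29, −0.22 and −0.10 in shDNAJC2 and 0.33, 0.39 and −0.10 in shCtrl. The chaperonin subunits were at 0.15, 0.10 and −0.11 in shDNAJC2 and −0.12, −0.07 and 0.04 in shCtrl. The part that the fibroblast genes, the ATF4 axis or shCtrl 3 had in these differences was not tested.

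**Figure D5:**
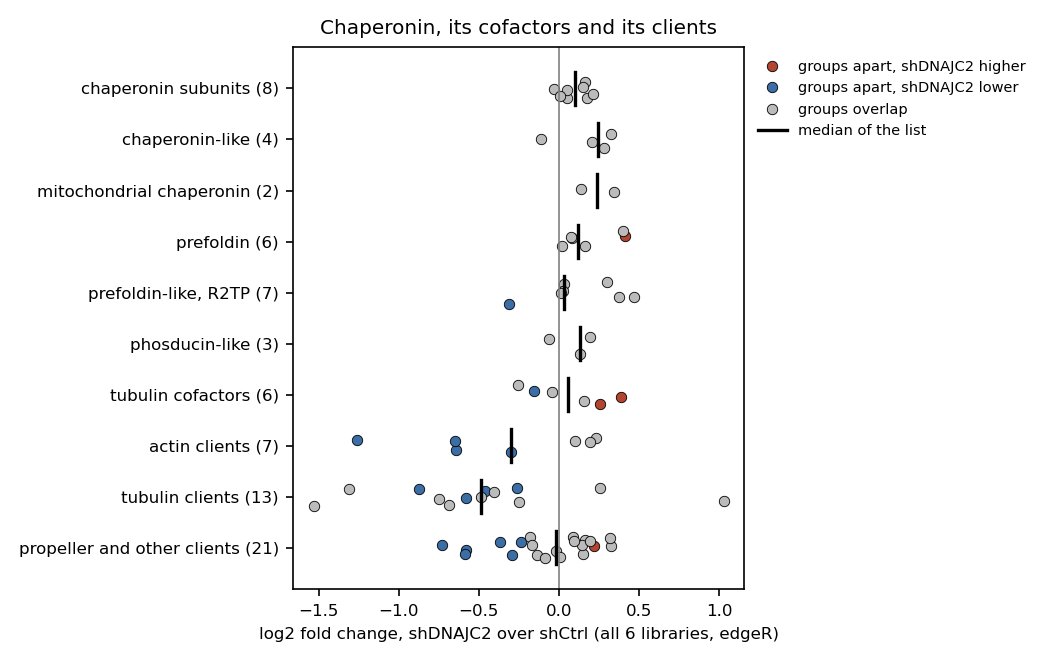
Log2 fold change of each tested gene, shDNAJC2 over shCtrl over all 6 libraries, for the chaperonin subunits, their relatives, cofactors and clients (number tested in brackets); the black line is each list's median and colour marks genes whose groups do not overlap. The 8 subunits lie between −0.03 and 0.21, the actin clients between −1.26 and 0.23 and the tubulin clients between −1.53 and 1.03.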

How the data were processed

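The authors deposited raw counts of reads per gene for 6 libraries, with no normalization; that they are counts was read from the values. The submitters' processing notes name the genome build GRCh38 (hg38). Aligner, counter and strand setting are not given in the sources used here. Of 20532 genes, 20279 matched GENCODE 29 by identifier. The 13988 genes kept by filterByExpr were fitted in edgeR 4.0.16 (R 4.3.3) with TMM normalization, group as the only term, the two-sided quasi-likelihood F test and Benjamini-Hochberg adjustment over all genes, with a threshold of 0.05. Log2 CPM used a prior count of 2. Alternatives were DESeq2 1.42.0, limma-voom (limma 3.58.1), other scalings and filters, a GC correction, a replicate block and leaving out each library. The script was tested on simulated data.

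The 8 members, the lists of cofactors, clients and markers, and the tests were chosen with earlier results of these data known. The text names all members, DNAJC2, up to 3 genes of smallest p per list of the chaperonin system and the 5 nearest profiles, of which 1 is not reported here, as is 1 marker gene. Genes outside this rule are marked as such, and marker and neighbouring genes are given as checks. Intervals cover the spread between libraries, and floors of 3 counts cover counting error only.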

Additional observations from a re-analysis of the deposited data

How the results depend on the processing

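No subunit was called under any of the 16 other settings, and 114 of 128 values kept their sign. The median log2 fold change of the 8 ranged from 0.06 to 0.20 when each library was left out (0.0565 without shDNAJC2 1, 0.197 without shCtrl 3, 0.198 without shDNAJC2 3). CCT4 turned negative with upper quartile factors (−0.0198), with the GC trend removed (−0.0519), with the replicate block and the GC trend removed (−0.0527), without shDNAJC2 1 (−0.0578), without shCtrl 3 (−0.0495) and with no scaling factors (−0.0516, chosen after seeing the data). TCP1 turned negative with the GC trend removed (−0.0157), also with the replicate block (−0.0178), without shDNAJC2 1 (−0.0156) and with no scaling factors (−0.00102). CCT3 turned negative without shDNAJC2 2 (−0.0154) and without shCtrl 1 (−0.0236), and CCT7 turned positive without shDNAJC2 3 (0.0204) and without shCtrl 3 (0.00174). CCT6B was at −0.0512 without shDNAJC2 1, and PDCL at 0.0127, 0.0607 and 0.0105 without shDNAJC2 2, shCtrl 1 and shCtrl 2. With 1 library left out, the lowest and highest log2 fold changes were −0.0578 and 0.0786 for CCT4, −0.0156 and 0.134 for TCP1, −0.0236 and 0.211 for CCT3, −0.0627 and 0.0204 for CCT7, −0.0512 and 0.443 for CCT6B, and −0.219 and 0.0607 for PDCL. The cause of these turns was not tested. CCT2, CCT5, CCT6A and CCT8 were positive under every setting tried, with ranges of 0.129 to 0.339, 0.0892 to 0.278, 0.0917 to 0.25 and 0.101 to 0.274 when 1 library was left out. Over all genes edgeR called between 0 and 2532 higher and between 0 and 2413 lower when 1 library was left out, with both high counts without shCtrl 3, and DESeq2 called 4 higher and 14 lower. With a replicate block edgeR called 0 genes and the subunit median was 0.108. Libraries of the same number deviated from their group means with correlations of −0.382, −0.521 and −0.664. With 3 libraries a group and shCtrl 3 apart from the other controls, these correlations cannot tell whether libraries of the same number shared a batch. DNAJC2 was called by DESeq2 (adjusted p = 0.0496) and without shCtrl 3. Counts of 5038 or more per subunit and library mean that the spread between 3 libraries a group, and not depth, set the width of the intervals. Taking the longest coding transcript left each subunit's level relative to the mean of the 8 as it was.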
